A study of Mus musculus with 9 samples.

Results

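The 9 genes described here belong to the retinoic acid pathway: the receptors Rara, Rarb and Rarg, the uptake receptor Stra6, the binding proteins Crabp1 and Crabp2, the enzymes Cyp26a1 and Dhrs3, and the target Stra8. They form a list of names, drawn up with earlier results of these data known, and each was matched to its Ensembl ID. All 9 were found among the 52636 gene IDs of the count table, and 8 of them passed the low-count filter that left 16198 genes for testing. Rarb did not pass it. RNA of 9 samples of mouse embryonic stem (ES) cells was sequenced after removal of ribosomal RNA, as 3 libraries from each of 3 lines. The Esrrb+Nanog line is titled NanogKO:Esrrb:Nanog (44JN) and the Esrrb line NanogKO:Esrrb (44J), and both carry the genotype label N{delta}:cE:iN, whose parts the labels do not spell out. The Nanog-null line is titled NanogKO (44C6) with the genotype N{delta}, so all groups carry that alteration of Nanog. No group was treated. All cells grew in serum with leukaemia inhibitory factor and were sorted for surface PECAM and for absence of PDGFRA. Each group is 1 line, so the effect of an added gene and the identity of the line cannot be told apart. The labels do not say that replicates were separate cultures, so p-values speak only of the spread among these libraries, which may be technical.

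Retinoic acid is made from retinol (vitamin A) by oxidation, first to retinaldehyde and then to the acid, and CYP26 enzymes break it down. Inside the cell it binds retinoic acid receptors (RARs), which sit on DNA as pairs with retinoid X receptors (RXRs) at repeats of a short hexamer and switch neighbouring genes on. In ES cells retinoic acid is a classical trigger of differentiation, and in germ cells it starts meiosis through Stra8. 

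Library totals ran from 21808120 to 32496267 counts. Levels are given as CPM, counts scaled to a common library size with edgeR's trimmed mean of M values. Nanog averaged 281 CPM in Esrrb+Nanog cells, 31.7 CPM in Esrrb cells and 14.9 CPM in Nanog-null cells, and Esrrb averaged 1107, 803 and 276 CPM in the same lines. Pecam1, the sorted surface marker, averaged 49.8, 61.9 and 101.1 CPM. Pdgfra, the marker sorted against, averaged 2.90 ± 1.1 CPM in Esrrb+Nanog cells, 10.4 ± 4.2 CPM in Esrrb cells and 2.29 ± 2.0 CPM in Nanog-null cells (SD, n = 3), and was higher in Esrrb cells than in Nanog-null cells (log2 change 2.16, edgeR adjusted p = 0.00474). The 8 markers of undifferentiated ES cells were present in every library, and their summed level ran from 3678 to 3938 CPM in Esrrb+Nanog cells, from 4008 to 4093 CPM in Esrrb cells and from 2930 to 3161 CPM in Nanog-null cells. Relative to Nanog-null cells, 4 were called higher and 2 lower (Sox2 and Dppa4) in Esrrb+Nanog cells, and 5 higher and 0 lower in Esrrb cells. Over all tested genes 54.4% and 48.5% were called in either direction in these comparisons. The Nanog-null libraries differed among themselves. Replicate 2 was high, with a median log2 ratio to its partners of 1.24 over 11 primitive endoderm markers, 2.187 over 5 fibroblast markers and 0.82 over 7 trophoblast markers, against 0.16 over the 8 tested retinoic acid genes. Replicate 1 was low, with ratios of -0.89, -1.60 and -1.10 over the same marker lists and -0.16 over the 8 genes. Results that rest on either library are given with and without it.

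Of the promoter windows in RefSeq (GRCm38.p6, 250 bases before to 50 after a transcript start), 17 belong to 8 of the 9 genes. Crabp2 had no window. They were searched on both strands for the RAR hexamer AGGTCA and its variants AGTTCA or GGTTCA or GGGTCA, for direct repeats of 2 such hexamers spaced by 5, 2 or 1 bases, and for TCAAGGTCA, the motif bound by Esrrb, which contains AGGTCA. A single hexamer is common and was in 43.7% of the 32851 windows of this length. The repeat spaced by 5 bases was in 32 windows (0.0974%), the repeat spaced by 2 in 0.268%, the repeat spaced by 1 in 0.222% and TCAAGGTCA in 0.423%. The windows of Rarb and Cyp26a1 held the repeat spaced by 5. No window of the 8 genes held TCAAGGTCA, or a repeat of the hexamers searched for spaced by 2 or 1. Repeats with other hexamers, such as GGGTGA, were not searched for, so their absence is not shown. The 250 bases before the start are printed for these 2 genes, because they carry the repeat, and for Stra8 and Crabp1, because these changed most in opposite directions. Each reads 5′ to 3′ on the strand of its gene, with hexamers on either strand and the bases between repeated hexamers in capitals.
Rarb (chr14:16575477-16575726, minus strand): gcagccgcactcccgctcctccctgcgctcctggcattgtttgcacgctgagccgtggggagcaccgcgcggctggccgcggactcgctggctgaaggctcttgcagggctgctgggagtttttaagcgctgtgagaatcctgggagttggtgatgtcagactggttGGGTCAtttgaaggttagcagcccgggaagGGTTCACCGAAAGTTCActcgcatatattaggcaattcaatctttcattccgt
Cyp26a1 (chr19:37697558-37697807, plus strand): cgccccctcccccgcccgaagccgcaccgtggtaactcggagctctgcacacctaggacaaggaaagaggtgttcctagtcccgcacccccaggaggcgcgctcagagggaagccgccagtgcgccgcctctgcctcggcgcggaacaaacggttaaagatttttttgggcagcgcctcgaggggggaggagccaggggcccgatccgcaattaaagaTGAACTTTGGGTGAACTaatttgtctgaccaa
Stra8 (chr6:34920698-34920947, plus strand): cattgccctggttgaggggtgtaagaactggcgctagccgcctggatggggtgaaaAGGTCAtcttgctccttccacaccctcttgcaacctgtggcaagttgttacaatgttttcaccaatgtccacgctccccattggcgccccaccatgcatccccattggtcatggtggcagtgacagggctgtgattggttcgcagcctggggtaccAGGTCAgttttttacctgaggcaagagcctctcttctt
Crabp1 (chr9:54764498-54764747, plus strand): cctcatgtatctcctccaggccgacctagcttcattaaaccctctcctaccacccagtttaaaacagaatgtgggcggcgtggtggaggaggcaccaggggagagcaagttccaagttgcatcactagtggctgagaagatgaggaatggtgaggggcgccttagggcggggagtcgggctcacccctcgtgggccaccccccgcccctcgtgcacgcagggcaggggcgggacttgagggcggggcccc
The Rarb repeat, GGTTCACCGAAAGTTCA, spans bases -53 to -37 before the start, and a further hexamer lies at -83 to -78. The Cyp26a1 repeat lies on the other strand at -32 to -16 and reads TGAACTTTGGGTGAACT as printed. Of the hexamers searched for, Stra8 had 2, at -194 to -189 and at -38 to -33, and Crabp1 had none. GGGTGA, which was not searched for, stands 2 bases before the first of these in the Stra8 sequence. On the other strand GGGTGA also occurs in the Crabp1 sequence, where it reads tcaccc as printed. The windows of Rarb and Stra8 lie inside the spans given for these genes below, so their transcript starts are internal to those spans. A match describes letters only and does not show that a receptor was bound.

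**Figure D1:**
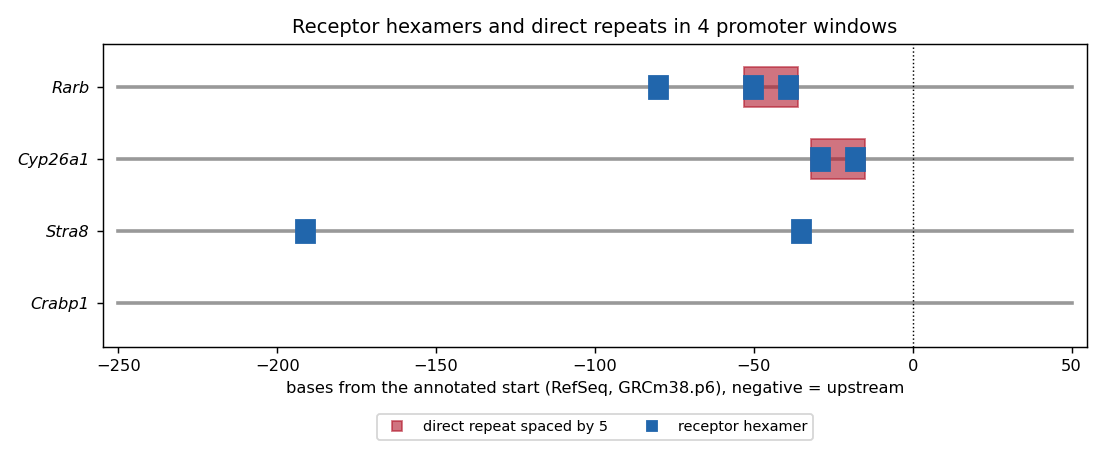
Map of the RAR hexamers and their repeats in the promoter windows of the 4 genes whose sequences are printed, with distance from the RefSeq transcript start in bases on the x axis. Of the hexamers searched for, Rarb and Cyp26a1 each hold a repeat spaced by 5 bases, Stra8 holds 2 hexamers and Crabp1 holds none.

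Rara and Rarg were the abundant receptors in all lines, and Rarb was near the limit of counting. Rara rose in both lines with added genes, and Rarg rose in Esrrb cells but not in Esrrb+Nanog cells. RARα, encoded by Rara (ENSMUSG00000037992, mm10 chr11:98927818-98974942, plus strand), is the most widely expressed of these receptors. Rara had 107, 116 and 113 CPM in Esrrb+Nanog cells and 116, 125 and 105 CPM in Esrrb cells, against 66.5, 67.4 and 68.4 CPM in Nanog-null cells. All 6 libraries with added genes lay above all 3 Nanog-null libraries, and the Esrrb+Nanog and Esrrb libraries overlapped. Relative to Nanog-null cells, Rara was higher by 0.73 ± 0.070 on the log2 scale in Esrrb+Nanog cells (SE; edgeR adjusted p = 5.32e-06) and by 0.78 ± 0.070 in Esrrb cells (adjusted p = 5.09e-06). Between Esrrb+Nanog and Esrrb cells the log2 difference in Rara was -0.04 ± 0.069 (edgeR adjusted p = 0.743).

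Rarg (ENSMUSG00000001288, chr15:102234938-102257517, minus strand) encodes RARγ, a receptor prominent in early embryonic cells. Rarg stood at 165, 212 and 225 CPM in Esrrb+Nanog cells, at 281, 325 and 298 CPM in Esrrb cells and at 202, 189.85 and 209 CPM in Nanog-null cells. The Esrrb libraries were the highest 3 of the 9, while the Esrrb+Nanog libraries lay on both sides of the Nanog-null ones. Rarg was higher in Esrrb cells than in Nanog-null cells by 0.59 ± 0.10 log2 units (edgeR adjusted p = 0.000591). It was lower in Esrrb+Nanog cells than in Esrrb cells by almost the same amount, a log2 change of -0.59 ± 0.10 (adjusted p = 0.00335). Between Esrrb+Nanog and Nanog-null cells the difference was 0.00 ± 0.10 log2 units (edgeR adjusted p = 0.998), with a sign that changed between settings. Rara and Rarg thus kept different orders over the 3 lines: the Esrrb+Nanog line was with the Esrrb line in Rara and with the Nanog-null line in Rarg.

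Rarb (ENSMUSG00000017491, chr14:16430839-16819156, minus strand) encodes RARβ and is a direct target of retinoic acid through the repeat printed above. Its counts were 1, 3 and 1 in Esrrb+Nanog cells, 0, 2 and 0 in Esrrb cells and 1, 7 and 4 in Nanog-null cells. A count of 0 allows up to 3 counts, or 0.104 and 0.115 CPM in the 2 Esrrb libraries at 0, for counting error only. Exons of Rarb share 1793 bases with the oppositely oriented gene Top2b, which had 25827 counts over the 9 libraries, and whether counting used strand is not stated, so the few Rarb counts cannot be told from antisense reads. No difference in Rarb was detectable at this depth.

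**Figure D2:**
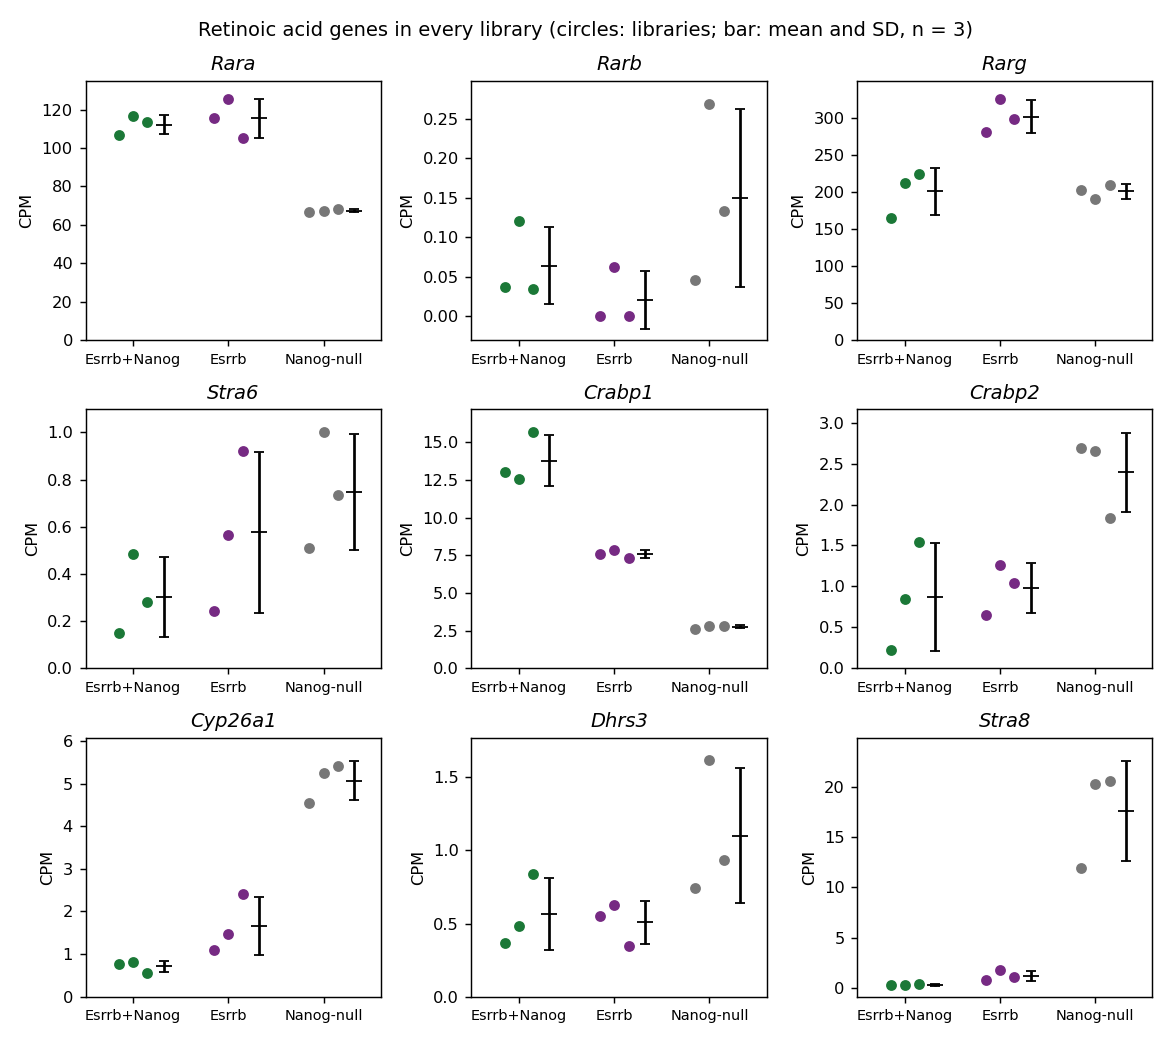
Level of each of the 9 genes in every library, in CPM on the y axis of each panel, with points for single libraries and bars for the mean and SD of 3. The 6 libraries with added genes lie below the Nanog-null ones for Stra8 and Cyp26a1 and above them for Crabp1 and Rara, and the Esrrb libraries stand highest for Rarg.

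The binding proteins for retinoic acid in the cytoplasm changed in opposite directions. Crabp1 rose and Crabp2 fell in both lines with added genes relative to Nanog-null cells. CRABP1 binds retinoic acid in the cytoplasm and is known for passing it to degrading enzymes, whereas CRABP2 is known for carrying it to RARs in the nucleus. Crabp1 (ENSMUSG00000032291, chr9:54764748-54773110, plus strand) had 13.1, 12.5 and 15.7 CPM in Esrrb+Nanog cells, 7.57, 7.87 and 7.34 CPM in Esrrb cells and 2.64, 2.81 and 2.84 CPM in Nanog-null cells. The 3 lines formed 3 separate steps with no overlap, and within a line the spread was small. In the Esrrb+Nanog line Crabp1 was 4.97-fold higher than in Nanog-null cells, a log2 change of 2.31 ± 0.13 (edgeR adjusted p = 1.12e-07). The step between Esrrb and Nanog-null cells was 1.45 ± 0.13 log2 units (adjusted p = 5.13e-06), and that between Esrrb+Nanog and Esrrb cells was 0.86 ± 0.12 (edgeR adjusted p = 0.000803). The promoter of Crabp1 printed above, with none of the hexamers searched for, belongs to the gene that rose most among the 9.

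Crabp2 (ENSMUSG00000004885, chr3:87948666-87953376, plus strand) was sparse and varied more. It had 0.222, 0.845 and 1.54 CPM in Esrrb+Nanog cells, 0.657, 1.26 and 1.04 CPM in Esrrb cells and 2.69, 2.66 and 1.84 CPM in Nanog-null cells, from 71, 86 and 182 counts per line. The Nanog-null libraries were the highest 3, and the other 6 overlapped. Crabp2 fell in Esrrb+Nanog cells, with a log2 change of -1.44 ± 0.45 (edgeR adjusted p = 0.0169), and in Esrrb cells, with -1.27 ± 0.44 (adjusted p = 0.0309), both relative to Nanog-null cells. The call in Esrrb cells was lost without Nanog-null replicate 1 (edgeR adjusted p = 0.0714) or 2 (0.0747), or without Esrrb replicate 1 (0.113) or 3 (0.0581). The call in Esrrb+Nanog cells was lost without Esrrb+Nanog replicate 2 (edgeR adjusted p = 0.0503). Between Esrrb+Nanog and Esrrb cells the log2 difference was -0.17 ± 0.48 (edgeR adjusted p = 0.858).

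Stra6 (ENSMUSG00000032327, chr9:58063788-58153996, plus strand) encodes the membrane receptor that takes up retinol from retinol-binding protein. It had 0.148, 0.483 and 0.280 CPM in Esrrb+Nanog cells, 0.242, 0.566 and 0.922 CPM in Esrrb cells and 0.510, 1.00 and 0.736 CPM in Nanog-null cells. All values were low and the Esrrb libraries overlapped both other lines, while the Esrrb+Nanog and Nanog-null libraries did not overlap. Stra6 was lower in Esrrb+Nanog cells than in Nanog-null cells, with a log2 change of -1.33 ± 0.51 (edgeR adjusted p = 0.0444). That call was lost with DESeq2 (adjusted p = 0.0708) and without Nanog-null replicate 2 (edgeR adjusted p = 0.144) or 3 (0.084), Esrrb replicate 2 (0.0502), or Esrrb+Nanog replicate 1 (0.137) or 3 (0.108). The log2 difference was -0.41 ± 0.45 between Esrrb and Nanog-null cells (edgeR adjusted p = 0.486) and -0.92 ± 0.53 between Esrrb+Nanog and Esrrb cells (adjusted p = 0.288).

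Cyp26a1, the enzyme that clears retinoic acid, was lowest in Esrrb+Nanog cells, intermediate in Esrrb cells and highest in Nanog-null cells. CYP26A1 hydroxylates retinoic acid, and its gene (ENSMUSG00000024987, chr19:37697798-37701536, plus strand) is itself a well-known target of retinoic acid through the repeat printed above. Cyp26a1 had 0.775, 0.804 and 0.560 CPM in Esrrb+Nanog cells, 1.11, 1.48 and 2.42 CPM in Esrrb cells and 4.54, 5.24 and 5.42 CPM in Nanog-null cells. The lines did not overlap, and every Nanog-null library lay above every other library. Relative to Nanog-null cells, the log2 change was -2.83 ± 0.28 in Esrrb+Nanog cells, a 7.11-fold lower level (edgeR adjusted p = 6.73e-06), and -1.61 ± 0.25 in Esrrb cells (adjusted p = 0.000246). From the Esrrb line, the Esrrb+Nanog line differed by -1.22 ± 0.30 log2 units (edgeR adjusted p = 0.021). The last call rests on a few libraries, since it was lost without Esrrb replicate 3 (log2 change -0.86, edgeR adjusted p = 0.0667), Esrrb+Nanog replicate 2 (adjusted p = 0.0506) or Esrrb+Nanog replicate 3 (adjusted p = 0.0773). In bulk RNA, fewer cells with a transcript and less of it in each cell cannot be told apart, here and for the other genes.

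Dhrs3 (ENSMUSG00000066026, chr4:144892827-144928209, plus strand) encodes an enzyme that reduces retinaldehyde back to retinol and so limits the making of retinoic acid. It had 0.369, 0.483 and 0.840 CPM in Esrrb+Nanog cells, 0.553, 0.629 and 0.346 CPM in Esrrb cells and 0.741, 1.62 and 0.937 CPM in Nanog-null cells. Nanog-null replicate 2 was the highest of the 9, and Esrrb+Nanog replicate 3 lay within the Nanog-null range. Dhrs3 was lower in Esrrb cells than in Nanog-null cells, with a log2 change of -1.09 ± 0.38 (edgeR adjusted p = 0.0331). Without Nanog-null replicate 2 this change was -0.73 and the call was lost (edgeR adjusted p = 0.159), as it was without Esrrb replicate 1 (0.0693) or 3 (0.101) and with DESeq2 (0.0606). In the Esrrb+Nanog line the log2 difference from the Nanog-null line was -0.95 ± 0.38, which was not called at the threshold of 0.05 (edgeR adjusted p = 0.0522). It was called with no low-count filter (edgeR adjusted p = 0.0159) and without Nanog-null replicate 1 (0.0301) or Esrrb+Nanog replicate 3 (0.021). Esrrb+Nanog and Esrrb cells differed by 0.14 ± 0.42 (edgeR adjusted p = 0.866).

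Stra8 changed most of the 9 genes. STRA8 is a nuclear protein that germ cells make in response to retinoic acid and need in order to enter meiosis. Its gene (ENSMUSG00000029848, chr6:34920163-34939344, plus strand) carries the hexamers printed above. Stra8 had 0.258, 0.241 and 0.350 CPM in Esrrb+Nanog cells, 0.760, 1.76 and 1.04 CPM in Esrrb cells and 11.9, 20.3 and 20.6 CPM in Nanog-null cells. These are totals of 23, 105 and 1398 counts over the 3 libraries of each line. The lines formed 3 separate steps, with the largest step between the Nanog-null libraries and all others. In the Esrrb+Nanog line Stra8 was 60.8-fold lower than in Nanog-null cells, a log2 change of -5.93 ± 0.36 (edgeR adjusted p = 1.95e-07), which ranked 45 by absolute size among the 16198 tested genes. In the Esrrb line it was 14.6-fold lower than in Nanog-null cells, a log2 change of -3.87 ± 0.29 (adjusted p = 1.28e-06, rank 171). In the Esrrb+Nanog line it was a further 4.16-fold below the Esrrb line, a log2 change of -2.06 ± 0.45 (edgeR adjusted p = 0.0112, rank 119). Without Nanog-null replicate 2 the changes in Stra8 from the Nanog-null line were -5.82 log2 units in Esrrb+Nanog cells and -3.77 in Esrrb cells. Without Nanog-null replicate 1, which had the lowest Stra8 of its line, they were -6.16 and -4.11.

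**Figure D3:**
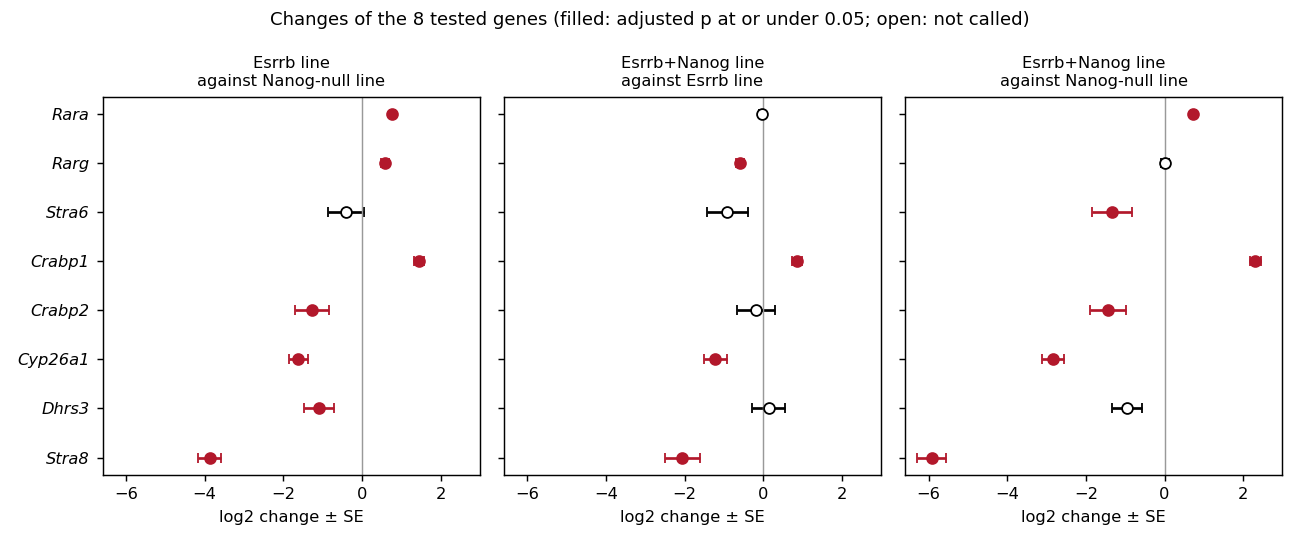
Log2 change of the 8 tested genes in the 3 comparisons between lines, with bars of 1 standard error and filled points where the edgeR adjusted p is at or under 0.05. Stra8 and Cyp26a1 lie below 0 in all 3 comparisons, Crabp1 lies above 0 in all 3, and Rarg changes sides.

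Counted over the 8 tested genes, Esrrb+Nanog against Nanog-null cells gave 2 higher (Rara and Crabp1) and 4 lower (Stra6, Crabp2, Cyp26a1 and Stra8), where 27.2% of all tested genes were called higher, 27.2% lower and 54.4% in either direction. Esrrb against Nanog-null cells gave 3 higher (Rara, Rarg and Crabp1) and 4 lower (Crabp2, Cyp26a1, Dhrs3 and Stra8), where 24.2% of all tested genes were called higher, 24.2% lower and 48.5% in either direction. Esrrb+Nanog against Esrrb cells gave 1 higher (Crabp1) and 3 lower (Rarg, Cyp26a1 and Stra8), where 5.43% of all tested genes were called higher, 7.75% lower and 13.2% in either direction. With single libraries left out, the lower calls ran from 3 to 5 in the first of these comparisons and from 2 to 4 in the second. They were 3 and 2 without Nanog-null replicate 2, and 2 in the second also without Esrrb replicate 1 or Esrrb replicate 3. In the first, leaving out other libraries also removed the call of Stra6 or Crabp2, as given above. The median log2 change of the 8 genes was -1.14, -0.75 and -0.38 in these comparisons, against 0.0019, 0.0063 and -0.0051 over all tested genes. Against Nanog-null cells this background is high, and the counts carry little by themselves. The 3 comparisons share libraries, so their values are not independent of each other.

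Per kilobase of exon, which allows levels of different genes to be compared, Rarg and Rara led in every line. Rarg averaged 47.1 ± 7.5 CPM per kilobase in Esrrb+Nanog cells, 70.8 ± 5.2 in Esrrb cells and 47.1 ± 2.3 in Nanog-null cells (SD, n = 3 libraries each). Rara averaged 25.7 ± 1.1, 26.4 ± 2.3 and 15.4 ± 0.22 CPM per kilobase in the same order of lines. Stra8 averaged 0.157 CPM per kilobase in Esrrb+Nanog cells (place 7 of the 9 genes) and 0.658 in Esrrb cells (place 6), against 9.75 in Nanog-null cells (place 3). Crabp1 took place 3 in Esrrb+Nanog cells, at 17.2 CPM per kilobase, and in Esrrb cells, at 9.46, and place 4 in Nanog-null cells, at 3.45. Cyp26a1 averaged 0.360 CPM per kilobase in Esrrb+Nanog cells, 0.841 in Esrrb cells and 2.56 in Nanog-null cells. In Nanog-null cells no neighbours in this order overlapped over the 3 libraries. In Esrrb+Nanog cells the runs from Crabp2 through Cyp26a1 and Dhrs3 to Stra8 overlapped from each to the next, as did Cyp26a1, Crabp2 and Stra8, and Dhrs3 and Stra6, in Esrrb cells.

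**Figure D4:**
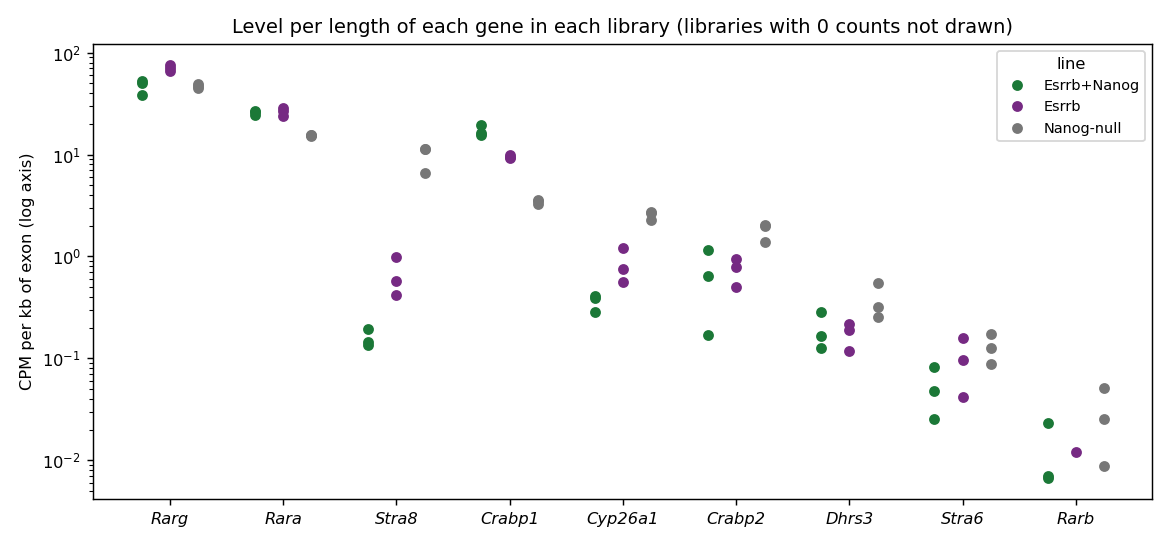
Level of the 9 genes in every library, in CPM per kilobase of exon on a log axis, with 1 point per library and libraries with 0 counts not drawn. Rarg and Rara lie highest in every line, while Stra8 lies at place 7 in Esrrb+Nanog cells and at place 3 in Nanog-null cells.

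The balance between paired genes was compared by ratios chosen after the values were seen. The ratio of Rarg to Rara per kilobase was 1.58, 1.87 and 2.03 in Esrrb+Nanog cells, 2.49, 2.65 and 2.90 in Esrrb cells and 3.12, 2.88 and 3.13 in Nanog-null cells. It was lowest in Esrrb+Nanog cells, and the Esrrb and Nanog-null libraries overlapped. The ratio of Crabp1 to Crabp2 was 97.2, 24.5 and 16.8 in Esrrb+Nanog cells, 19.0, 10.3 and 11.7 in Esrrb cells and 1.62, 1.74 and 2.55 in Nanog-null cells. All libraries with added genes lay above all Nanog-null libraries. The ratio of 97.2 rests on 6 counts of Crabp2. Of the 6 comparisons of these ratios, the 4 with no overlap reached p = 0.1 in a two-sided exact permutation test, which is the smallest value that 3 libraries against 3 allow, and the other 2 had p = 0.2. Absence of overlap fixes that smallest value, so the test adds nothing to it.

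The other genes of the pathway were taken from lists of known members. Relative to Nanog-null cells, 27.2% of all tested genes were called higher and 27.2% lower in Esrrb+Nanog cells. In Esrrb cells 24.2% were called higher and 24.2% lower. Beside these shares, counts within the small lists below carry little by themselves. Among the 5 RXR partners and alternative carriers, 1 rose and 1 fell in both lines relative to Nanog-null cells, with list medians of -0.10 and 0.02 log2 units in Esrrb+Nanog and Esrrb cells. Rxra, a partner of all RARs, averaged 36.9 ± 2.7 CPM in Esrrb+Nanog cells and 32.8 ± 4.6 CPM in Esrrb cells, against 23.1 ± 2.4 CPM in Nanog-null cells (SD, n = 3; edgeR adjusted p = 0.000344 and 0.00295). Rxrb, a related partner, averaged 73.5 ± 2.1 and 76.1 ± 4.9 CPM in the lines with added genes, against 102 ± 7.9 CPM in Nanog-null cells (edgeR adjusted p = 0.000199 and 0.000559). Rxra thus moved with Rara, and Rxrb moved the other way. None of the 5 was called between Esrrb+Nanog and Esrrb cells, by edgeR or by DESeq2, and 0 had an unadjusted p under 0.05 in edgeR.

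Of 8 enzymes of retinol and retinaldehyde metabolism 7 were tested, and 3 fell in both lines relative to Nanog-null cells, while none rose. Over all tested genes 27.2% were called lower in Esrrb+Nanog cells and 24.2% in Esrrb cells, so this count carries little by itself. The list medians were -0.33 and -0.16 log2 units in Esrrb+Nanog and Esrrb cells. Rdh11, a retinaldehyde reductase of the short-chain dehydrogenase family, averaged 26.3 ± 0.63 CPM in Esrrb+Nanog cells and 23.2 ± 0.98 CPM in Esrrb cells, against 36.5 ± 0.85 CPM in Nanog-null cells (SD, n = 3; edgeR adjusted p = 0.000124 and 1.51e-05). Adh5, an alcohol dehydrogenase with a wide range of substrates, averaged 316 ± 24 and 357 ± 3.3 CPM, against 398 ± 8.0 CPM in Nanog-null cells (edgeR adjusted p = 0.000753 and 0.0494). Rdh10, which makes retinaldehyde from retinol, was the other to fall, with log2 changes of -0.45 in Esrrb+Nanog cells and -0.46 in Esrrb cells (edgeR adjusted p = 0.0483 and 0.0491), and was named after its values were seen. It had 6.57, 7.16 and 7.53 CPM in Esrrb+Nanog cells, 6.19, 7.58 and 7.38 CPM in Esrrb cells and 7.88, 12.7 and 8.40 CPM in Nanog-null cells, where replicate 2 was the highest. Without Nanog-null replicate 2 the log2 changes of Rdh10 were -0.21 and -0.22 and neither was called (edgeR adjusted p = 0.251 and 0.227). Without Nanog-null replicate 2 the count of enzymes that fell was 2 in both comparisons, and in Esrrb cells it was 1 without Esrrb replicate 1, 2 or 3 or without Esrrb+Nanog replicate 2. The fall of Adh5 in Esrrb cells was among those lost, with an edgeR adjusted p of 0.13 without Esrrb replicate 1. For Esrrb+Nanog against Esrrb cells edgeR called 0 of 7, 4 had an unadjusted p under 0.05, and DESeq2 called 0.

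Of the 7 genes of retinol transport and storage, 3 were tested, with list medians of 0.12 and -0.23 log2 units in Esrrb+Nanog and Esrrb cells relative to Nanog-null cells. Dgat1, an acyltransferase that can store retinol as an ester, averaged 31.9 ± 1.4 CPM in Esrrb+Nanog cells and 27.8 ± 1.6 CPM in Esrrb cells, against 21.9 ± 2.4 CPM in Nanog-null cells (SD, n = 3; edgeR adjusted p = 0.000386 and 0.00851). Dgat1 rose in both lines and was not called between Esrrb+Nanog and Esrrb cells (edgeR adjusted p = 0.177). The degrading enzymes Cyp26b1 and Cyp26c1 were too sparse to test, with 7, 14 and 27 counts of Cyp26b1 and 9, 18 and 36 counts of Cyp26c1 over the Esrrb+Nanog, Esrrb and Nanog-null lines.

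Coregulators, which RARs recruit to silence or activate genes, were all 8 abundant enough to test. Relative to Nanog-null cells, 4 rose and 1 fell in each line with added genes. Over all tested genes 54.4% were called in either direction in Esrrb+Nanog cells and 48.5% in Esrrb cells. The coactivator Ncoa3 averaged 398 ± 17 CPM in Esrrb+Nanog cells, 478 ± 13 CPM in Esrrb cells and 358 ± 21 CPM in Nanog-null cells (SD, n = 3 libraries each), and it fell in Esrrb+Nanog cells relative to Esrrb cells (log2 change -0.26, edgeR adjusted p = 0.0148). Ncoa3 rose in both lines relative to Nanog-null cells (edgeR adjusted p = 0.0466 and 0.00016 in Esrrb+Nanog and Esrrb cells), but in Esrrb+Nanog cells this call was lost on leaving out any of 7 single libraries, with an adjusted p of up to 0.191 (without Nanog-null replicate 2). The call between Esrrb+Nanog and Esrrb cells was lost without Esrrb replicate 3 (edgeR adjusted p = 0.0502) or Esrrb+Nanog replicate 2 (0.0711). The count of coregulators that rose relative to Nanog-null cells was 2 without Nanog-null replicate 2 or 3 in both lines, without Esrrb replicate 1 in Esrrb cells and without Esrrb+Nanog replicate 3 in Esrrb+Nanog cells. The list medians were 0.06 and 0.09 log2 units in Esrrb+Nanog and Esrrb cells.

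Among 12 other genes known to be induced by retinoic acid, 10 were tested and did not move one way. Relative to Nanog-null cells, 2 rose and 4 fell in Esrrb+Nanog cells, and 2 rose and 2 fell in Esrrb cells. Over all tested genes 54.4% and 48.5% were called in either direction in these comparisons. Cdx1, a homeobox gene of the posterior embryo, had 4.17, 6.84 and 4.94 CPM in Esrrb+Nanog cells and 3.49, 8.47 and 2.69 CPM in Esrrb cells, against 0.649, 0.963 and 0.803 CPM in Nanog-null cells. Cdx1 rose in Esrrb+Nanog cells by 2.70 log2 units (edgeR adjusted p = 0.000266) and in Esrrb cells by 2.595 (adjusted p = 0.000447), opposite in direction to Stra8 and Cyp26a1. Gbx2, a homeobox gene also active in ES cells, averaged 44.4 ± 11 and 34.9 ± 12 CPM, against 20.3 ± 1.0 CPM in Nanog-null cells (edgeR adjusted p = 0.00133 and 0.0138). The rise of Gbx2 in Esrrb cells was lost without Nanog-null replicate 3 (edgeR adjusted p = 0.0511) or Esrrb replicate 2 (0.0549). Between Esrrb+Nanog and Esrrb cells 1 of the 10 rose and 1 fell, where 13.2% of all tested genes were called in either direction. These small counts moved between 0 and 3 as single libraries were left out, apart from the 4 that fell in Esrrb+Nanog cells relative to Nanog-null cells. The list medians were -0.35, -0.22 and -0.016 log2 units for Esrrb+Nanog against Nanog-null cells, Esrrb against Nanog-null cells and Esrrb+Nanog against Esrrb cells.

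**Figure D5:**
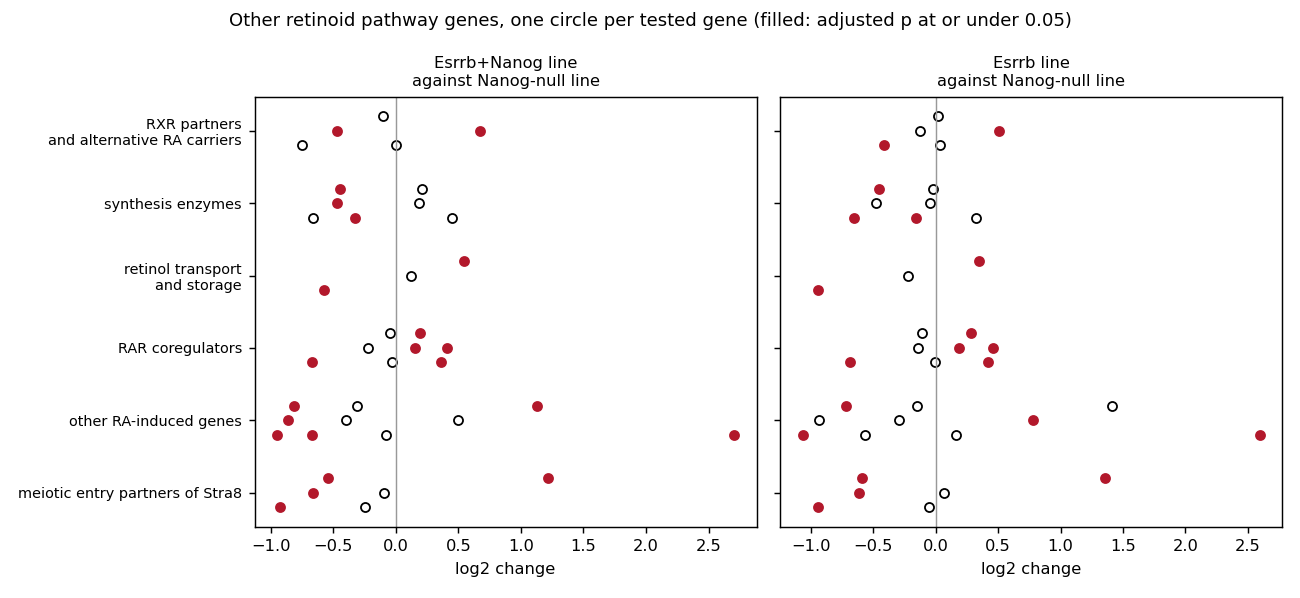
Log2 change of the tested genes of each pathway list relative to Nanog-null cells, with Esrrb+Nanog cells on the left and Esrrb cells on the right, with filled points where the edgeR adjusted p is at or under 0.05. The highest point of either panel is Cdx1, and each list other than the synthesis enzymes has called genes on both sides of 0.

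Genes that act with Stra8 at the entry into meiosis were measured in all lines. Of the 6, 1 rose and 3 fell in each line with added genes relative to Nanog-null cells, with list medians of -0.39 and -0.32 log2 units in Esrrb+Nanog and Esrrb cells. Over all tested genes 54.4% and 48.5% were called in either direction in these comparisons. Dmc1, a recombinase of meiosis, averaged 13.0 ± 2.4 CPM in Esrrb+Nanog cells and 13.0 ± 2.1 CPM in Esrrb cells, against 24.8 ± 1.6 CPM in Nanog-null cells (SD, n = 3; edgeR adjusted p = 0.000226 and 0.00026). Dazl, an RNA-binding protein that readies germ cells for meiosis, was the gene that rose, with 12.3 ± 1.0 and 13.5 ± 2.2 CPM in the lines with added genes, against 5.28 ± 0.24 CPM in Nanog-null cells (edgeR adjusted p = 1.91e-05 and 1.1e-05). For Esrrb+Nanog against Esrrb cells edgeR and DESeq2 called 0 of the 6, and 0 had an unadjusted p under 0.05 in edgeR. Stra8 fell in that comparison (log2 change -2.06), whereas Dmc1 differed by 0.01 log2 units (edgeR adjusted p = 0.972).

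Beyond Cyp26a1 and Rarb, the repeat spaced by 5 bases was in windows of a further set of genes, 31 genes in all, of which 4 were tested. Over all tested genes 54.4% were called in Esrrb+Nanog cells and 48.5% in Esrrb cells, so counts over 4 genes carry little by themselves. Relative to Nanog-null cells, 2 rose and 2 fell in Esrrb+Nanog cells, and 1 rose and 1 fell in Esrrb cells. Those called in Esrrb+Nanog cells were Cfap45 and Syndig1, which rose by 1.07 and 0.72 log2 units (edgeR adjusted p = 0.000102 and 0.0292), and Blvrb and Cyp26a1, which fell with log2 changes of -0.45 and -2.83 (adjusted p = 0.00105 and 6.73e-06). The list was drawn up after the values were seen.

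The genes whose levels ran most like those of the 3 members with the widest range were found by Pearson's r of log2 CPM over the 9 libraries, which share 3 lines, so the values describe steps between lines. Stra8 was most like Cnih1 (r = 0.995), Urgcp (0.993) and Larp7 (0.993). Urgcp averaged 3.51 CPM in Esrrb+Nanog cells, 5.20 in Esrrb cells and 13.7 in Nanog-null cells, so its range was far smaller than that of Stra8. Cyp26a1 was most like Nr6a1 (r = 0.993), an orphan nuclear receptor, then Fgfr2 (0.982), a receptor of fibroblast growth factors, and Plcg2 (0.982). Fgfr2 averaged 4.90 CPM in Esrrb+Nanog cells, 18.2 in Esrrb cells and 81.6 in Nanog-null cells. Nr6a1 averaged 85.5, 116 and 174 CPM and Plcg2 53.1, 66.4 and 103 CPM in that order, with smaller fold ranges than Cyp26a1. Crabp1 was most like Gjb5 (r = 0.995), a gap junction gene, with 29.3, 12.8 and 3.16 CPM in the same order of lines, then Hnrnpul2 (0.995) and Gtf3c5 (0.994). Hnrnpul2 averaged 487, 432 and 338 CPM and Gtf3c5 64.8, 57.2 and 48.3 CPM, with smaller fold ranges than Crabp1. Among the 9 genes themselves, Stra8 and Cyp26a1 had r = 0.957, and Crabp1 had r = -0.974 with Stra8 and -0.973 with Cyp26a1.

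Markers of other cell types differed between the lines too. Relative to Nanog-null cells, 27.2% of all tested genes were called lower in Esrrb+Nanog cells and 24.2% in Esrrb cells, with the same shares called higher. Counts of called markers stand beside these shares. Summed fibroblast markers ran from 10.6 to 18.4 CPM in Esrrb+Nanog cells, from 10.6 to 16.7 CPM in Esrrb cells and from 16.6 to 86.7 CPM in Nanog-null cells. Among them Col3a1, Postn and Dcn were at 0 in Esrrb+Nanog cells and Postn was at 0 in Esrrb cells, and of the 5 tested 1 rose and 2 fell in Esrrb+Nanog cells and 1 rose and 3 fell in Esrrb cells relative to Nanog-null cells. Without Nanog-null replicate 1, 4 fell in Esrrb+Nanog cells. Summed trophoblast markers ran from 31.0 to 39.9 CPM in Esrrb+Nanog cells, from 23.3 to 29.4 CPM in Esrrb cells, where Elf5 was at 0, and from 56.7 to 200.1 CPM in Nanog-null cells. Of the 7 trophoblast markers tested, 4 fell in Esrrb+Nanog cells and 5 in Esrrb cells relative to Nanog-null cells, and none rose. In Esrrb cells 3 fell without Nanog-null replicate 2 or Esrrb replicate 1. Summed primitive endoderm markers ran from 477 to 610 CPM in Esrrb+Nanog cells, from 275 to 392 CPM in Esrrb cells and from 451 to 667 CPM in Nanog-null cells, with none of the 12 at 0. Lama1, Lamb1 and Lrp2 make up most of these sums. Lama1 averaged 356, 136 and 43.6 CPM in Esrrb+Nanog, Esrrb and Nanog-null cells, and Lrp2 97.8, 84.7 and 329 CPM. Gata6, at 6.90, 25.2 and 3.66 CPM in the same order, was instead highest in Esrrb cells. Relative to Nanog-null cells, 2 primitive endoderm markers were called higher and 5 lower in Esrrb+Nanog cells, and 4 higher and 3 lower in Esrrb cells (5 lower without Nanog-null replicate 1). Relative to Esrrb cells, 1 was called higher and 5 lower in Esrrb+Nanog cells, where 13.2% of all tested genes were called in either direction. Summed neuroectoderm markers ran from 24.3 to 33.2 CPM in Esrrb+Nanog cells, from 14.3 to 18.9 CPM in Esrrb cells and from 24.9 to 38.9 CPM in Nanog-null cells, and of the 4 tested 2 rose and 1 fell in Esrrb+Nanog cells and 1 rose and 2 fell in Esrrb cells relative to Nanog-null cells. These neuroectoderm counts ran from 0 to 2 with single libraries left out. The part of these markers in the falls of Stra8, Cyp26a1, Crabp2 and Dhrs3 was not tested. Leaving out Nanog-null replicate 2, the library with the highest fibroblast and trophoblast sums, left the log2 change of Cyp26a1 at -2.81 in Esrrb+Nanog cells and -1.61 in Esrrb cells, and those of Stra8 at -5.82 and -3.77. The same step left Crabp2 at -1.35 and -1.19, with the call in Esrrb cells lost (edgeR adjusted p = 0.0747), and Dhrs3 at -0.58 and -0.73, called in neither line. Nanog-null replicates 2 and 3 had fibroblast sums of 86.7 and 28.2 CPM and trophoblast sums of 200.1 and 91.9 CPM, beside 20.3 and 20.6 CPM of Stra8. Nanog-null replicate 1, at 16.6 and 56.7 CPM of these markers, had 11.9 CPM of Stra8.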

How the data were processed

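The authors deposited raw read counts per Ensembl gene as whole numbers, per the file headers. DNase-treated RNA of sorted cells was depleted of ribosomal RNA and made into libraries with a NEBNext kit, per the labels' protocols. The submitters' processing notes name bcl2fastq 2.19.1, STAR 2.5.3a and mm10, with gene models and strand settings not given in the sources used here. Of 15 columns in the count table, 9 matched the samples by name and 6 were not used here.

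The fit used edgeR 4.0.16 and limma 3.58.1 in R 4.3.3, with the default low-count filter, trimmed mean of M values scaling and a quasi-likelihood model of the 9 libraries in which line was the single term. Each of 3 comparisons was adjusted by Benjamini-Hochberg over 16198 genes, with calls at 0.05. A standard error is the absolute log2 change over the square root of F. CPM values carry no pseudocount, and correlations used log2 CPM with a prior count of 2. GENCODE M21 gave symbols, positions and exon lengths, and RefSeq gave promoter windows. The fit was tested on simulated data. The members and the gene lists were chosen with earlier results of these data known. All 9 members were named. From each pathway list the text gives the 2 tested genes with the smallest adjusted p in any comparison, of which 2 are not reported here, and for the 3 members with the widest range it gives the 3 genes most alike. The alternatives tried were scaling by median-of-ratios factors or by library totals alone, DESeq2 1.42.0, no low-count filter or one of at least 5 CPM in 3 libraries, fits of 2 lines at a time, a replicate block, testing against a 1.5-fold change, and leaving out each library.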

Additional observations from a re-analysis of the deposited data

How the results depend on the processing

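The changes of Rara and Crabp1, and those of Cyp26a1 and Stra8, relative to Nanog-null cells kept their direction and their call under all alternatives that gave a value. Tested against a fold change of 1.5, all genes called numbered 3063 for Esrrb+Nanog against Nanog-null cells, 2488 for Esrrb against Nanog-null cells and 233 for Esrrb+Nanog against Esrrb cells, compared with 8816, 7849 and 2135. Members called were then 4 for Esrrb against Nanog-null cells, and 0 for Esrrb+Nanog against Esrrb cells in edgeR, where 3 had an unadjusted p under 0.05 (DESeq2, against no change, called 4). With at least 5 CPM in 3 libraries, members called were 3 for the Esrrb+Nanog line and 4 for Esrrb against Nanog-null cells, since fewer members passed that filter. With library totals alone, Esrrb+Nanog against Esrrb cells gave 1386 genes higher and 941 lower, compared with 880 and 1255, and the log2 difference was 0.021 for Rara and 0.013 for Rxrb instead of -0.04 and -0.05. With 1 library left out in turn, all genes called in that comparison ran from 1105 (without Esrrb replicate 1) to 2374, with 1378 without Esrrb replicate 3 and 1215 without Esrrb+Nanog replicate 2. Over the same runs the log2 difference between Esrrb+Nanog and Esrrb cells ran from -0.105 to 0.022 for Rara, -0.908 to 0.295 for Crabp2, -0.277 to 0.383 for Dhrs3, -0.178 to 0.775 for Cdx1, -0.232 to 0.004 for Dazl, -0.116 to 0.149 for Dmc1 and -0.079 to 0.070 for Rdh10. Rarg in Esrrb+Nanog cells against the Nanog-null line ran from -0.087 to 0.119, and was -0.005 with median-of-ratios factors, -0.002 with DESeq2, -0.011 with at least 5 CPM, -0.003 in the fit of only the 2 lines compared and -0.010 with the replicate block. None of these differences was called as reported, and the cause was not tested.

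Deviations of same-numbered libraries had correlations from -0.025 to 0.278, and those of differently numbered libraries ran from -0.329 to 0.224. Replicate 2 correlated best with replicate 2 in all 3 comparisons (0.107, 0.278 and 0.071), but not every library correlated best with its own number. These values do not settle whether the numbers pair the libraries, and the main fit left them unpaired. The fit with the replicate block called 8946, 7997 and 2381 genes for Esrrb+Nanog against Nanog-null cells, Esrrb against Nanog-null cells and Esrrb+Nanog against Esrrb cells, and 6, 7 and 4 members.

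Depth limits Rarb, Stra6, Dhrs3 and Crabp2, whose counts over 3 libraries of a line ran from 2 to 182, and also Stra8 and Cyp26a1 in the Esrrb+Nanog line, with 23 and 57 counts.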
